A study of Arabidopsis thaliana with 4 samples.

Results

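UDP-glycosyltransferases, written UGT and a number, are enzymes that move a sugar from a UDP-sugar onto a small molecule. The members measured here are the genes whose symbol in the platform's probe annotation begins with UGT and a number, where a probe set names that gene alone. There were 47 such genes, each with 1 probe set, among 13356 genes that have a probe set of their own. In plants these enzymes attach glucose or other sugars to hormones, flavonoids, phenolic acids, glucosinolate precursors, sterols and foreign compounds, which usually makes the acceptor more soluble, less active or ready for storage in the vacuole. The number after UGT marks a family of related proteins, the letter a subfamily and the last number the gene. Many Arabidopsis UGT genes stand beside close relatives in tandem arrays, and the family is known for members that respond to dehydration, to abscisic acid (ABA) and to pathogens.

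Signals came from 4 one-colour Affymetrix arrays of whole Arabidopsis thaliana seedlings, 2 of the mutant ced1 and 2 of wild type (WT), in both cases in the gl1-Col0 background, where gl1 is a mutation known to remove leaf trichomes. All seedlings were 16 days old, had grown on MS agar in continuous light and had been placed on 40% polyethylene glycol (PEG), an osmotic stress, for 6 h. As background, ced1 is an allele of BODYGUARD, a gene of the cuticle, and induces NCED3, a gene of ABA synthesis, only weakly under stress. No untreated seedlings were analysed here, so every value is a level after PEG. The arrays are labelled as biological replicates without a word on how they were grown apart, so the p-values reflect the spread among these 4 arrays, which may be technical. In whole seedlings, fewer cells of a type and less RNA per cell cannot be told apart.

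The signal is a linear brightness per probe set in arbitrary units, and brightness does not rank one gene against another. Each gene was compared between genotypes on its own probe set, and signals were added over probe sets only for the marker lists below, where the brightest probe set weighs most. Each array held 22746 probe sets, with medians of 186 and 188 on the ced1 arrays and 156 and 173 on the WT arrays. Over the 13648 probe sets above a low-signal filter, 3161 were higher and 2626 lower in ced1 in limma at a Benjamini-Hochberg adjusted p under 0.05, which is 23.2% and 19.2% of them. With each array's median over all probe sets set equal, these counts were 2213 and 3437, and the median log2 difference of the tested probe sets was -0.09 instead of 0.07. Without ced1 array 1 the counts fell to 1313 higher and 1426 lower, and without ced1 array 2 to 1200 and 1329. The root markers with a named probe set, 3 of the 9 listed, summed to signals of 6064 to 6536 in ced1 and 9694 to 9788 in WT. Nearly all of this sum was PYK10, which was lower at -0.64 ± 0.11 (adjusted p = 0.00442, limma), while EXPA7 and EXPA18 overlapped between the genotypes. The mesophyll markers, 2 of 7, summed to 39170 to 39486 in ced1 and 19176 to 27548 in WT. LHCB4.2 was higher at 2.05 ± 0.48 (adjusted p = 0.0135, limma), with WT arrays at 2431.5 and 8395.7, and LHCB4.1 did not pass at 0.19 ± 0.11 (adjusted p = 0.2, limma). No marker of either list was at 0, and the part of these shifts in the results below was not tested. Of the 5 guard cell markers only FMA had a named probe set, with 155 to 191 in ced1 and 92.9 to 176 in WT, and the listed markers of epidermis, phloem, xylem and seed had none.

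Most UGT genes that passed the test were lower in ced1 after PEG. Of the 47 genes, 29 passed the low-signal filter, and of these 15 were lower, 4 were higher and 10 did not pass the test. The 19 called genes were 65.5% of the tested members, beside 42.4% of all tested probe sets. The lower ones were 51.7%, beside 19.2%, and the higher ones 13.8%, beside 23.2%. In 24 of the 29 the signals of the genotypes did not overlap, beside 74.7% of all tested probe sets. Both ced1 signals lay below both WT signals in 19 members and above them in 5, beside 33.6% and 41.1%. UGT73C7, UGT85A3, UGT85A5, the neighbours UGT76E11 and UGT76E12 and the ABA glucosyltransferase gene UGT71B6 were lower by the most. Of these, UGT73C7, UGT85A3 and UGT71B6 passed the filter through their WT level alone, which favours large differences. The same holds for UGT78D1 through its ced1 level. The flavonol rhamnosyltransferase gene UGT78D1 rose by 2.69 on the log2 scale, and UGT88A1, the glucosinolate gene UGT74B1 and UGT74D1 were the other genes that rose.

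These counts describe the members that could be tested and are no test of the family. The filter is a mean signal of about 102.7 over the 4 arrays, on a log scale, so a gene can pass it through 1 genotype alone. That was so for 7 tested members: UGT71B6, UGT73C7, UGT76B1, UGT84A4, UGT85A3 and UGT85A7 had a ced1 level under the filter, and UGT78D1 a WT level under it. Of the 22 members above the filter in both genotypes, 12 were lower, 3 were higher and 7 did not pass. No share was computed over all probe sets above the filter in both genotypes, so these counts have no background beside them. The median log2 difference, ced1 minus WT, was -0.69 over the 29 tested members, beside 0.07 over all tested probe sets. A difference of at least 2-fold on the log2(signal + 16) scale was called for 9 lower and 3 higher of the 29 tested members. Over all tested probe sets the shares were 8.16% and 9.00%, and that of higher members was near the latter. The same 4 and 15 counts were found with quantile normalization, with both forms of equal array medians, and with offsets of 1 and 64. The background moved between these settings. Of the 13648 tested probe sets, 2213 were higher and 3437 lower with equal array medians over all probe sets. With the other settings named, 3057 to 3229 were higher and 2617 to 2933 lower.

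**Figure D1:**
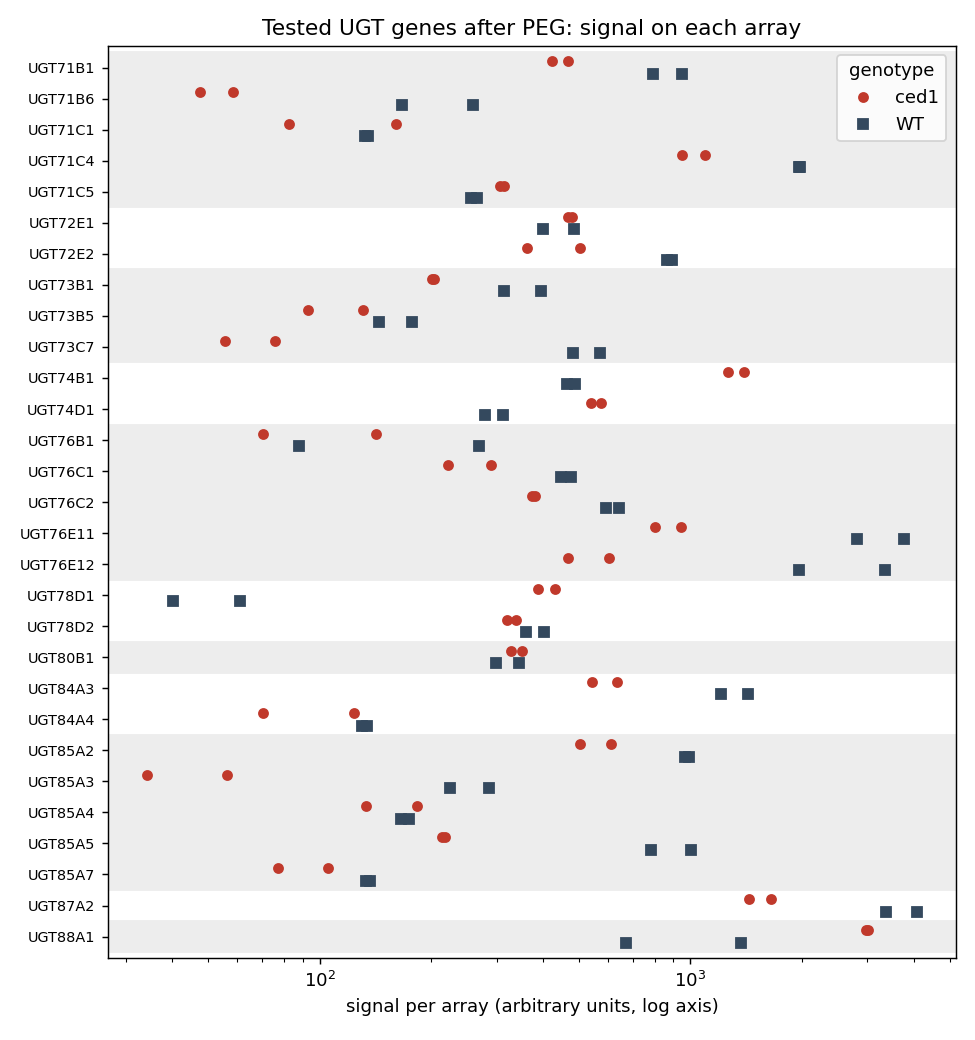
Signal of the 29 tested UGT genes on each of the 4 arrays, on a log axis in arbitrary units, with ced1 arrays as red circles drawn above WT arrays as dark squares and shading that changes with the UGT number. Both ced1 arrays of UGT73C7 lie at 55.6 and 75.7, left of the WT arrays at 483.4 and 569.4, and both of UGT78D1 lie right of WT.

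The called genes differed in direction between UGT numbers, each of which had few tested genes. Over all tested probe sets, 19.2% were lower and 23.2% higher. Within UGT76, 4 of 5 tested genes were lower and the median log2 difference was -0.82. Within UGT71, 3 of 5 were lower with a median of -0.94, and within UGT85, 3 of 5 with a median of -0.80. UGT73 had 2 lower genes of 3 tested, UGT72 and UGT84 had 1 of 2 each, and the single UGT87 gene was lower. No tested gene of UGT71, UGT72, UGT73, UGT76, UGT84, UGT85 or UGT87 passed in the higher direction. Both tested UGT74 genes were higher, as were 1 of 2 UGT78 genes and the single UGT88 gene, while the single UGT80 gene did not pass. Of the called genes counted here, UGT71B6, UGT73C7 and UGT85A3 passed the filter through their WT level alone. The 1 higher UGT78 gene, UGT78D1, passed it through its ced1 level alone. Such genes favour the direction in which they passed. These directions hold only for genes that passed the filter: with no filter UGT74F1, the third UGT74 gene, was lower and UGT72B3 was higher. By the protein groups in use for plant UGTs, group E (UGT71, UGT72 and UGT88) held 4 lower genes and 1 higher gene of 8 tested, and group L (UGT74 and UGT84) held 1 lower and 2 higher genes of 4. Groups this small were compared by their counts only, and the difference between them was not tested.

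**Figure D2:**
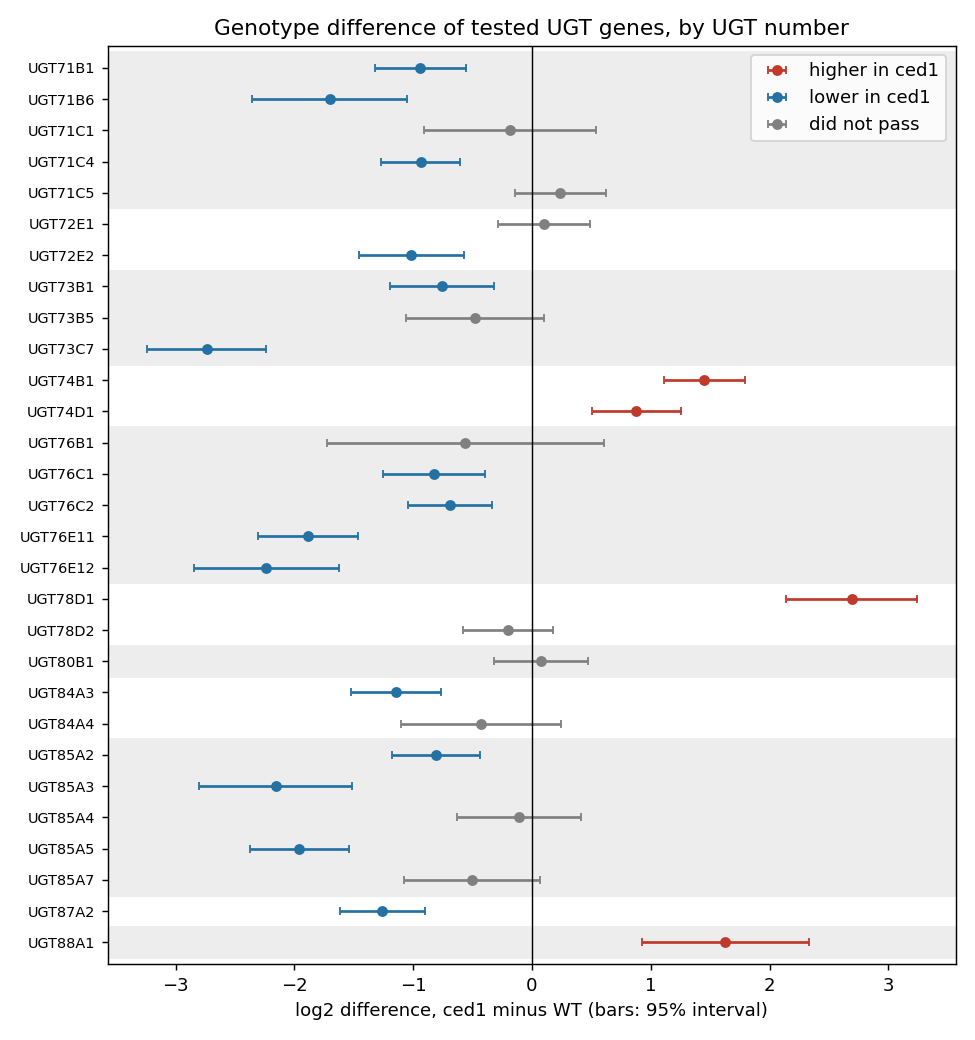
Log2 difference, ced1 minus WT, of the 29 tested UGT genes with 95% intervals from limma, ordered by UGT number. The 15 lower genes (blue) lie between -2.74 and -0.69, the 4 higher genes (red) between 0.88 and 2.69, and the intervals of the 10 grey genes cross 0.

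Among enzymes that act on hormones, UGT71B6 (AT3G21780), which glucosylates ABA, had signals of 58.5 and 47.6 in ced1, against 258.8 and 166.6 in WT. Both ced1 values lay well below both WT values, and the log2 difference was -1.70 ± 0.28 (SE; adjusted p = 0.00330, limma). Because the ced1 level is low, the size of this difference depends on the offset, and it was -1.22 with an offset of 64. Without either WT array the gene fell under the filter and was not tested. UGT71C5 (AT1G07240), the other measured ABA glucosyltransferase gene above the filter, had 314.0 and 306.9 in ced1 and 265.2 and 255.9 in WT. Its difference of 0.24, with a 95% interval of -0.15 to 0.62, did not pass (adjusted p = 0.272, limma). The third, UGT71B8, stayed at signals of at most 24.6 and was not tested.

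The cytokinin N-glucosyltransferase genes UGT76C1 (AT5G05870) and UGT76C2 (AT5G05860) were both lower. UGT76C1 had 289.0 and 222.5 in ced1 and 474.9 and 448.6 in WT, a log2 difference of -0.82 ± 0.18 (adjusted p = 0.0109, limma). UGT76C2 had 380.3 and 373.0 in ced1 and 640.6 and 591.9 in WT, a difference of -0.69 ± 0.15 (adjusted p = 0.0103, limma). For neither gene did the genotypes overlap. Without ced1 array 2, UGT76C1 at -0.65 and UGT76C2 at -0.67 did not pass, nor did UGT76C2 at -0.70 without ced1 array 1, while both genes passed without either WT array.

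UGT74D1 (AT2G31750), which glucosylates auxins and their oxidised forms, was higher. It had 539.2 and 574.3 in ced1 and 279.1 and 312.7 in WT, a difference of 0.88 ± 0.16 (adjusted p = 0.00491, limma), and at 0.83 it did not pass without ced1 array 2. The auxin glucosyltransferase genes UGT84B1 and UGT84B2 had no signal over 41.2 and were not tested. UGT76B1 (AT3G11340), which conjugates isoleucic acid and salicylic acid, had 70.3 and 141.8 in ced1 and 269.3 and 87.8 in WT, so that the genotypes overlapped and the WT arrays lay far apart. Its difference of -0.56 ± 0.50 did not pass (adjusted p = 0.395, limma). That difference was -1.29 without WT array 2, -0.996 without ced1 array 2 and -0.125 without ced1 array 1. Without WT array 1 the gene fell under the filter and was not tested. UGT76B1 passed the filter through its WT level alone. UGT74F1 (AT2G43840), which makes salicylic acid glucoside, was under the filter with 7.2 and 10.4 in ced1 and 86.2 and 57.4 in WT, and UGT76D1, another enzyme on benzoates, had 59.8 to 80.3 on the 4 arrays. UGT76E1 and UGT76E2, linked to the glucosylation of a hydroxylated jasmonate, had no signal over 57.0.

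In flavonoid glycosylation, UGT78D1 (AT1G30530), which adds rhamnose to flavonols, had the largest increase among the tested members. Its signals were 430.9 and 387.9 in ced1, against 40.3 and 60.9 in WT, and the means of the linear signals differed 8.09-fold. The log2 difference was 2.69 ± 0.23 (adjusted p = 0.000332, limma) with an offset of 16, 3.02 with an offset of 1 and 2.05 with an offset of 64, since the WT level is low. UGT78D2 (AT5G17050), which adds glucose to flavonols and anthocyanidins, had 338.5 and 320.0 in ced1 and 403.2 and 359.6 in WT, a difference of -0.20 with an interval of -0.58 to 0.18. UGT78D3, a flavonol arabinosyltransferase gene, had no signal over 11.4. The differences of UGT78D1 and UGT78D2 were 2.89 apart on the log2 scale. Per array, the log ratio of these genes did not overlap between genotypes, and the exact permutation test gave p = 0.333, the smallest that 2 arrays against 2 allow. UGT79B1, the anthocyanin xylosyltransferase gene listed in the annotation as UF3GT and so no member, had 75.2 and 68.9 in ced1 and 71.3 and 57.8 in WT and was not tested. AT5G54010, which the gene table gives as UGT79B6, had no signal over 32.7. The brassinosteroid glucosyltransferase genes UGT73C5 and UGT73C6 had no named probe set.

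Of the phenylpropanoid enzymes, UGT72E2 (AT5G66690), which glucosylates monolignols, had 503.2 and 361.9 in ced1 and 893.1 and 864.6 in WT. Both ced1 values lay below both WT values, with a log2 difference of -1.01 ± 0.19 (adjusted p = 0.00538, limma). Without ced1 array 2 the difference was -0.79 and did not pass. Its relative UGT72E1 (AT3G50740), active on lignin aldehydes, had 468.4 and 479.5 in ced1 and 483.9 and 401.4 in WT, with overlap and a difference of 0.10 (interval -0.28 to 0.49). That sign was negative with equal array medians over all probe sets and without WT array 2. UGT72E3 was under the filter, with 21.3 and 5.9 in ced1 and 45.9 and 47.9 in WT. UGT84A3 (AT4G15490), which forms glucose esters of hydroxycinnamic acids, was lower, with 632.9 and 544.2 in ced1 and 1212.4 and 1429.2 in WT, a difference of -1.14 ± 0.16 (adjusted p = 0.00182, limma). UGT84A1, of the same activity, had no signal over 6.6.

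UGT74B1 (AT1G24100), which glucosylates thiohydroximates in the synthesis of glucosinolates, was higher in ced1. It had 1260.9 and 1393.0 in ced1, against 488.0 and 463.3 in WT, with replicates close together in both genotypes. The log2 difference was 1.45 ± 0.14 (adjusted p = 0.000528, limma), and the gene passed in every alternative run, with each array left out in turn among them, at differences between 1.28 and 1.52. Of the genes tied to foreign compounds or pathogens, UGT73B5 (AT2G15480) had 131.0 and 92.9 in ced1 and 177.5 and 144.7 in WT, a difference of -0.48 ± 0.25 that did not pass (adjusted p = 0.156, limma). UGT73B4 and UGT73C1 were under the filter, with 29.5 and 8.1 in ced1 against 56.8 and 52.4 in WT for UGT73B4, and 46.5 and 38.2 in ced1 against 114.9 and 105.7 in WT for UGT73C1.

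The sterol glucosyltransferase gene UGT80B1 (AT1G43620) had 352.1 and 328.6 in ced1 and 298.9 and 345.9 in WT. Its difference of 0.08 had an interval of -0.32 to 0.47, and its sign turned with quantile normalization, with equal array medians over all probe sets and without WT array 1. UGT80A2, the related gene that the annotation lists as SGT, had 497.3 and 448.6 in ced1 and 589.4 and 613.9 in WT and did not pass at -0.34 ± 0.15 (adjusted p = 0.111, limma). It passed with equal array medians over all probe sets, at -0.51. UGT72B1, listed as GT72B1 and active on chlorinated phenols and anilines, had 1146.5 and 1074.4 in ced1 and 1670.5 and 1213.6 in WT. It did not pass at -0.36 ± 0.18 and did pass without WT array 2, at -0.58. Neither gene is a member by symbol.

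The largest decrease on the log2 scale among the tested members was that of UGT73C7 (AT3G53160), reported to act on phenolic acids, whose ced1 level was under the filter. It had 75.7 and 55.6 in ced1, against 569.4 and 483.4 in WT, and WT exceeded ced1 8.02-fold in mean linear signal. The log2 difference was -2.74 ± 0.21 (adjusted p = 0.000253, limma), and -2.19 with an offset of 64. UGT87A2 (AT2G30140), known for an effect on flowering time, had 1437.1 and 1653.6 in ced1 and 4082.8 and 3374.1 in WT, a difference of -1.26 ± 0.15 (adjusted p = 0.00102, limma). UGT88A1 (AT3G16520), active on flavonols in vitro, went the other way, with 2971.6 and 3018.0 in ced1 and 669.1 and 1369.0 in WT. The WT arrays differed from each other there, and the difference was 1.63 ± 0.30 (adjusted p = 0.00514, limma) with all arrays, 1.12 without WT array 1 and 2.14 without WT array 2.

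UGT71B1, UGT71C4 and UGT73B1, whose acceptors in the plant are not described here, were lower by less than 2-fold. UGT71C4 (AT1G07250) had 948.4 and 1096.3 in ced1 and 1971.0 and 1957.9 in WT, a difference of -0.94 ± 0.14 (adjusted p = 0.00242, limma). UGT71B1 (AT3G21750) had 423.1 and 467.6 in ced1 and 950.9 and 793.3 in WT, a difference of -0.94 ± 0.16, and did not pass without ced1 array 1, at -0.87. UGT73B1 (AT4G34138) had 201.5 and 203.4 in ced1 and 395.8 and 314.8 in WT, a difference of -0.76 ± 0.19. Leaving out ced1 array 1 (-0.75) or ced1 array 2 (-0.76) ended this call. In all 3 genes the genotypes did not overlap.

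Close relatives that lie next to each other could be compared through the gene order of the TAIR10.1 annotation, although the array values name no genome build and no positions are given. With at most 5 protein-coding genes allowed between members, 31 of the 47 genes fell into 13 blocks, and 6 blocks held at least 2 tested genes. No block held genes called in both directions, but all 4 higher genes lie outside these blocks. All these probe sets carry the plain suffix for a single target, and how far close relatives hybridise to each other's probes was not tested.

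The largest such block is UGT85A, with 4 genes side by side, all tested. In gene order, UGT85A7 (AT1G22340) had 105.5 and 77.2 in ced1 and 133.7 and 136.5 in WT, and did not pass at -0.51 ± 0.24. UGT85A2 (AT1G22360) had 609.1 and 502.8 in ced1 and 991.3 and 965.5 in WT, and was lower at -0.80 ± 0.16, a call lost without ced1 array 2 at -0.67. The last pair of the block showed the larger decreases. Of that pair UGT85A3, like UGT85A7, passed the filter through its WT level alone. UGT85A5 (AT1G22370), known for a link to salt tolerance, had 213.9 and 218.2 in ced1 against 1005.2 and 781.8 in WT, a difference of -1.96 ± 0.18 (adjusted p = 0.000370, limma). UGT85A3 (AT1G22380) had 56.4 and 34.2 in ced1 against 285.4 and 224.1 in WT, a difference of -2.16 ± 0.27 (adjusted p = 0.00123, limma) that was -1.54 with an offset of 64. Without either WT array UGT85A3 fell under the filter. The log ratio of UGT85A2 to UGT85A5 was higher by 1.16 in ced1, with no overlap of the arrays. Its exact permutation test gave p = 0.333, the smallest that 2 arrays against 2 allow. The 95% intervals of their differences do not meet, at -1.17 to -0.43 for UGT85A2 and -2.38 to -1.54 for UGT85A5. This pair is 1 of 12 compared, and intervals of single genes are no test of a pair. UGT85A4 (AT1G78270), the member of this subfamily that lies apart, had 133.2 and 182.9 in ced1 and 174.1 and 165.8 in WT, and its difference of -0.11 (interval -0.63 to 0.41) turned positive without ced1 array 1.

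UGT76E12 (AT3G46660) and UGT76E11 (AT3G46670), separated by 1 gene, fell together. UGT76E12 had 467.3 and 603.6 in ced1, against 3340.2 and 1959.3 in WT, a difference of -2.23 ± 0.26 (adjusted p = 0.000898, limma). UGT76E11, active on flavonoids, had 800.1 and 943.7 in ced1, against 3758.7 and 2818.1 in WT, a difference of -1.89 ± 0.18 (adjusted p = 0.000440, limma). Both stayed past the threshold in every alternative run. Their relatives UGT76E1 and UGT76E2, which form another block, were under the filter.

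In the UGT71C block, UGT71C4 was lower while its neighbour UGT71C5 was not called, and their differences lay 1.17 apart, with no overlap of the arrays (exact permutation p = 0.333). In the UGT84A block, UGT84A3 was lower and UGT84A4 (AT4G15500), with 124.0 and 70.5 in ced1 and 133.9 and 130.4 in WT, did not pass at -0.43 ± 0.29. In all, 12 pairs were compared, those within the 6 blocks and UGT78D1 with UGT78D2. In UGT85A5 with UGT85A3 and in UGT76C2 with UGT76C1 the log ratios overlapped between genotypes, and in the other 10 they did not. No share was computed over other pairs of probe sets. Among single tested probe sets 74.7% did not overlap, but that is a share of signals and not of log ratios. Whether these 10 pairs stand apart from other pairs was therefore not tested. No exact permutation test of 2 arrays against 2 could go below p = 0.333, with or without adjustment over the 12 pairs.

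**Figure D3:**
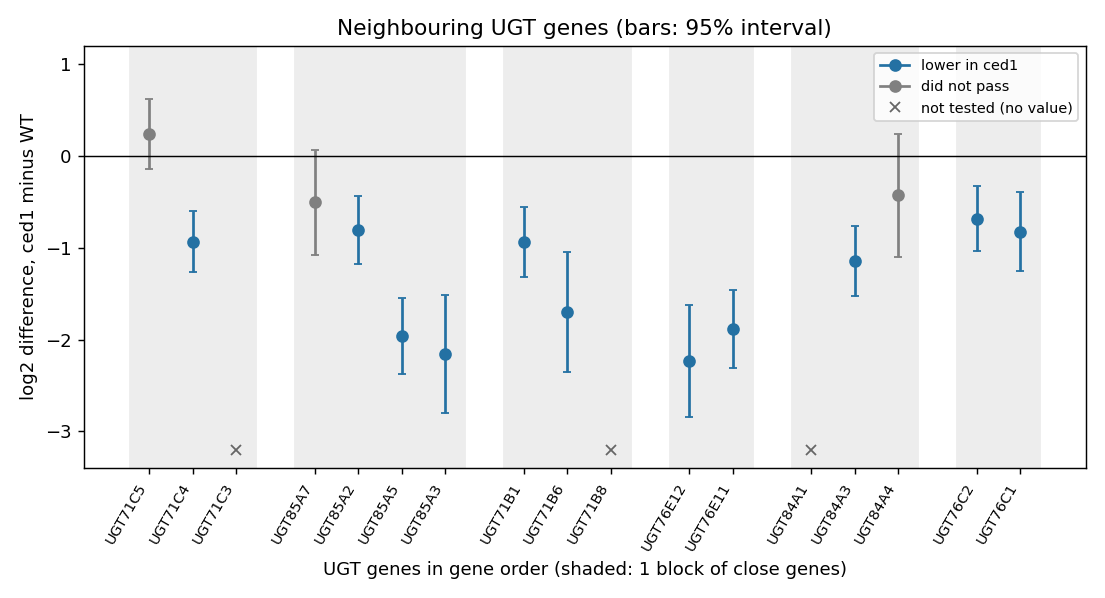
Log2 difference, ced1 minus WT, with 95% intervals, of UGT genes in the 6 blocks of close genes that hold at least 2 tested members, drawn in gene order with each block shaded and untested genes marked by a cross at the bottom that carries no value. UGT85A5 and UGT85A3 lie at -1.96 and -2.16, below UGT85A7 and UGT85A2 at -0.51 and -0.80.

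The 18 members under the filter had no signal above 115.6 on any array. In 11 of them both ced1 signals were below both WT signals, in 2 both were above, and in 5 the genotypes overlapped, while 18.0% of all probe sets under the filter lay wholly below and 24.7% wholly above. Without detection calls, which were not used here, a low signal is not shown to be absence. With no filter, where all 47 members are tested, 17 were lower and 5 higher, beside 10.4% and 12.2% of all 22746 probe sets. The share of higher members was thus near that of all probe sets. The 3 added calls were UGT74F1 at -1.81 ± 0.31 and UGT73C1 at -1.12 ± 0.28 on the lower side, and UGT72B3 (AT1G01420) at 1.25 ± 0.34 on the higher side. UGT72B3 had 115.6 and 111.3 in ced1 and 54.6 and 26.2 in WT, and its adjusted p was 0.0494 (limma). UGT71B5, UGT71C2, UGT71C3, UGT73C2 and UGT73D1 were the members under the filter not yet described, with signals between 15.7 and 111.7. UGT71C1 (AT2G29750), which passed the filter, had 160.6 and 82.5 in ced1 and 134.8 and 132.6 in WT, a difference of -0.18 (interval -0.91 to 0.54) that turned positive without ced1 array 2.

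Some calls depended on which arrays were used. With 1 array of a genotype left out, the replicate spread comes from the other genotype alone. A call can then end at a nearly unchanged difference. UGT73B1 was at -0.75 without ced1 array 1, -0.76 without ced1 array 2 and -0.76 with all arrays. Of the 19 called members, 12 kept their direction and their call in each alternative in which they were tested, and the other 7 lost the call without at least 1 of the ced1 arrays. These were UGT71B1, UGT72E2, UGT73B1, UGT74D1, UGT76C1, UGT76C2 and UGT85A2, all with differences of about 2-fold or less. Fewer members were called without ced1 array 1 or ced1 array 2. Calls over all probe sets also fell there, as given above, so the loss is not particular to these members. No called member changed its sign in any alternative.

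**Figure D4:**
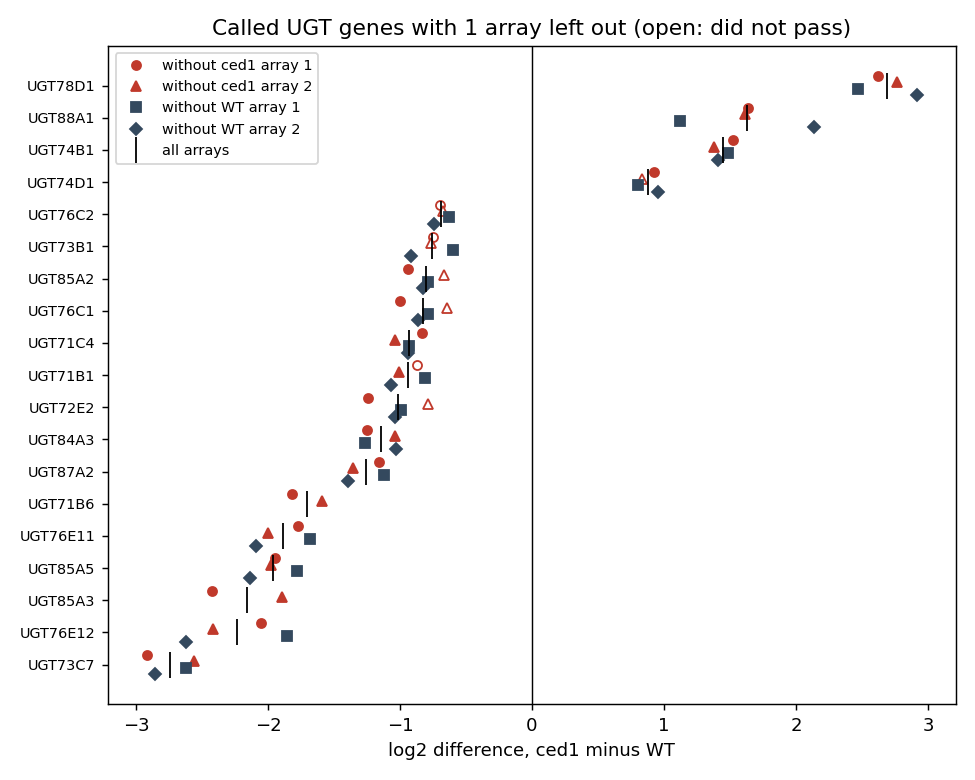
Log2 difference, ced1 minus WT, of the 19 called UGT genes with all arrays (black bars) and with each of the 4 arrays left out, where open symbols did not pass. Open symbols occur in 7 genes and only without a ced1 array, and UGT71B6 and UGT85A3 have no symbol without a WT array because they fell under the filter.

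Genes that act before or after the UGT step were measured in part. Of 38 listed genes that supply UDP-sugars, 1 had a named probe set: USP, a UDP-sugar pyrophosphorylase gene, had 782.1 and 881.3 in ced1 and 1028.0 and 991.3 in WT, and did not pass at -0.28 ± 0.14. Of 9 genes of ABA turnover 1 was measured, BGLU33, with 523.2 and 552.4 in ced1 and 566.5 and 459.5 in WT, which did not pass. Beta-glucosidases, many of which split glucosides, were taken by a symbol of BGLU and a number, so those under other names are not counted. They had 8 tested genes of 20 measured, of which 2 were higher and 2 lower, with a median of -0.18. These are 25% each, near the 23.2% and 19.2% of all tested probe sets. BGLU44 (AT3G18080), active on mannosides, was higher at 1.54 ± 0.15, and BGLU16 and BGLU25 were lower at -1.47 ± 0.13 and -1.27 ± 0.13. BGLU40 was higher at 0.56 ± 0.14, a call lost without ced1 array 1 at 0.58, without ced1 array 2 at 0.53 and with equal array medians over all probe sets at 0.39.

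Glutathione transferases, which detoxify by joining glutathione to a compound, were also taken by symbol. They had 9 tested genes of 14 measured, of which 4 were higher and 1 lower, with a median of -0.05. These are 44.4% and 11.1%, beside 23.2% and 19.2% of all tested probe sets. GSTU20 (AT1G78370) had 7100.7 and 7652.6 in ced1 and 1235.3 and 1682.0 in WT, a difference of 2.34 ± 0.17 (adjusted p = 0.000199, limma). GSTU27 was higher at 1.06 ± 0.15 and GSTL3 at 0.71 ± 0.14. GSTU28, with 71.2 and 92.6 in ced1 against 203.1 and 151.6 in WT, was lower at -0.98 ± 0.25. Its ced1 level was under the filter. Both GSTL3 and GSTU28 lost their call without ced1 array 1, at 0.73 and -0.82, and without ced1 array 2, at 0.68 and -1.14. GSTU28 also lost it with no filter. No ABCC transporter gene had a named probe set. Whether the UGT counts differ from those of these families was not tested.

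Of 31 listed genes of phenylpropanoid and flavonoid synthesis, 5 were measured and 3 tested. ALDH2C4, which makes sinapic and ferulic acid from the aldehydes, had 1496.8 and 1501.4 in ced1 and 3067.1 and 2393.3 in WT and was lower at -0.85 ± 0.16. HCT, an acyltransferase of lignin synthesis, was higher at 0.51 ± 0.15, a call lost without ced1 array 1 at 0.47, without ced1 array 2 at 0.55, without the intensity trend and with equal array medians over all probe sets at 0.34. DFR, an anthocyanin gene, had 130.1 and 106.0 in ced1 and 84.0 and 124.7 in WT, and did not pass at 0.17 ± 0.27. The genes without a named probe set are not known here, so these members do not speak for the pathway.

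**Figure D5:**
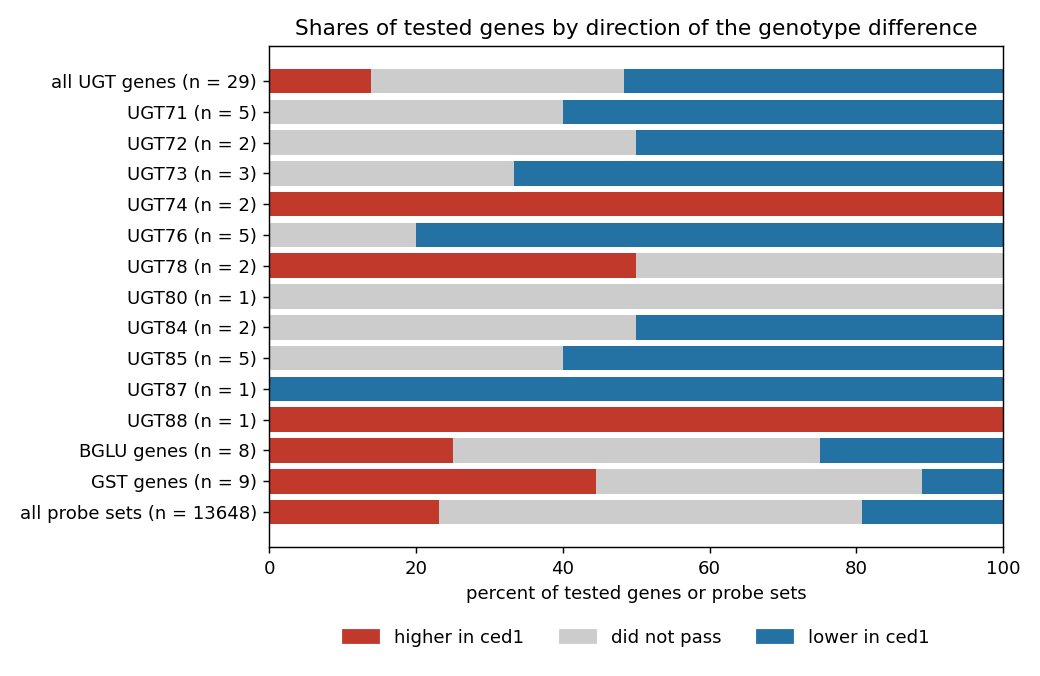
Percent of tested genes higher in ced1 (red, from the left), lower in ced1 (blue, to the right edge) or not past the test (grey), for all UGT genes, each UGT number, beta-glucosidase (BGLU) and glutathione transferase (GST) genes, and all tested probe sets. Lower genes make up 51.7% of the 29 tested UGT genes and 19.2% of the 13648 tested probe sets.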

How the data were processed

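The deposited intensity values are 1 linear signal per probe set and array. Per the submitters' processing notes they were made with MAS5, which subtracts background and scales arrays to a common trimmed mean. The sources used here name neither its version and settings nor a genome build. Groups and replicate numbers come from the sample titles, and no batch is named. The fit used limma 3.58.1 under R 4.3.3 (lmFit, then eBayes with a trend on intensity) on log2 of the signal plus an offset of 16, with genotype as its single term. It ran over the probe sets at or above the 40th percentile of mean log2 signal, with 2 residual degrees of freedom each. Differences are ced1 minus WT, and adjustment by Benjamini-Hochberg over all 13648 tested probe sets used a threshold of 0.05. The steps were tested on simulated data. Folds on this scale understate changes at low signal. Array number limits the precision.

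Genes were named through the platform annotation, which gives 1 gene for 13513 probe sets, several for 503 (3 of these with a UGT gene, left out) and does not list 8730. All 47 members matched the TAIR10.1 gene table, which holds 58 UGT symbols. Any UGT gene with its own probe set could be named, with values for called members of at least 2-fold and for those of known acceptor, and of other lists up to 4 genes of largest difference. UGT71B1, UGT71C4, UGT73B1, UGT84A4, UGT85A2, UGT85A4, UGT85A7, UGT72B3 and UGT71C1 were given values after these were seen. The list entries FDH and CHI were dropped because those symbols name other genes in the table. The members and lists were chosen with earlier results of these data known. Alternatives changed scaling, offset, filter, trend, replicate block and arrays.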

Additional observations from a re-analysis of the deposited data

How the results depend on the processing

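With no low-signal filter the median log2 difference of UGT genes was -0.52 over all 47 members. With the 60th percentile filter it was -0.81, and with equal array medians over all probe sets, a scaling added after seeing the data, -0.85. Over alternatives that left out 1 array, lower UGT genes numbered 10 to 14 and higher ones 3 to 4, and all probe sets lower in ced1 numbered 1329 to 3333 and higher ones 1200 to 4535. A lone array is then assumed to vary like the other genotype. Of 359 values of UGT genes under alternatives, 342 kept their direction and their side of the threshold. Signs that turned were all in genes that did not pass. Over the alternatives that left out 1 array, UGT80B1 ranged from -0.023 to 0.18, UGT72E1 from -0.029 to 0.23, UGT85A4 from -0.32 to 0.098, UGT71C1 from -0.60 to 0.24, BGLU33 from -0.073 to 0.22 and DFR from -0.076 to 0.42. With quantile normalization UGT80B1 was -0.0071 and DFR -0.0028, and with equal array medians over all probe sets UGT80B1 was -0.091, UGT72E1 -0.068 and BGLU33 -0.096. The cause was not tested. With the replicate number as a block, 4 UGT genes were higher and 15 lower, and 3608 and 2951 of all probe sets. Deviations of same-numbered arrays correlated at only 0.091, so the numbers are not taken to pair the arrays. Each member has 1 probe set, so testing every UGT probe set was bound to give the same 47 members. Current symbols gave the same members too.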
